A study of Mus musculus with 16 samples.

Results

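The neurotransmitter receptor genes of the mouse were examined in 10 lists of ChIP-seq peaks from embryonic stem cells and neural precursors. They were taken from the annotation by symbol alone, as protein-coding genes whose names begin with Gria, Grik, Grid, Grin, Grm, Gabr, Htr, Chrn, Chrm, Drd, Adra or Adrb followed by a letter or digit, leaving out Grina, Adrbk1, Adrbk2, the Htra proteases and the Gabarap genes. This gave 96 of 22232 protein-coding genes, with 187 annotated start sites. The name rule took in 2 genes that do not encode receptors, Grid2ip, whose product binds the delta glutamate receptor, and Grinl1a, which gives rise to an RNA polymerase II subunit. It left out the GABA-B receptors. Of the other 94 genes, 55 encode subunits of ligand-gated channels and 39 encode G protein-coupled receptors.

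The cells were 46C mouse embryonic stem (ES) cells, which carry a GFP reporter at the neural gene Sox1, grown on mouse feeder fibroblasts with LIF and 2 inhibitors (2i), and neural precursor cells (NPC) made from them by 6 days of differentiation in suspension. In each state H2AK119ub1 and H3K27me3 were mapped in wild type cells and in cells of the genotype shPCGF5, called PCGF5-depleted in the labels; the methods describe lines made with a lentiviral hairpin and puromycin selection. Flag-PCGF5 was mapped in ES and NPC whose own Pcgf5 gene carried a Flag tag, with a label of wild type. Every group was 1 library, so no difference between groups could be tested, and the values below are set side by side. No list measures RNA and a hairpin leaves the Pcgf5 gene in place, so the peaks cannot check that PCGF5 was depleted.

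Neurotransmitter receptors let neurons respond to glutamate, GABA, acetylcholine, serotonin, dopamine and noradrenaline. Ligand-gated channels pass ions within milliseconds of binding the transmitter, while G protein-coupled receptors act through second messengers. Many of them are characteristic of mature neurons. H3K27me3, written by Polycomb repressive complex 2, and H2AK119ub1, written by Polycomb repressive complex 1, mark developmental genes that are kept off, mostly at start sites rich in CpG. PCGF5 is a subunit of a variant form of complex 1.

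Promoters of 4 receptor genes with long H3K27me3 and of 3 with no peak in any list are printed to show how their CpG content differed. Each is the 250 bases upstream of the RefSeq start (table build GRCm38.p6), placed by exact match on mm9 and written 5′ to 3′ in the direction of the gene, with every CG in capitals. CG reads the same on both strands, and it occurred in 92.1% of 32851 RefSeq promoters of this length, with a median of 6.0 per promoter. For glutamate, acetylcholine and GABA the marked genes are Grin2c, an NMDA receptor subunit, Chrm4, a muscarinic receptor, and Gabra5, a GABA-A receptor subunit, and for the monoamines Adrb1, the beta-1 adrenergic receptor. In the glutamate class Grid2ip, which is no receptor, and Grm4 and Grid1, which had no entry in the table used, were passed over. The marked promoters held 15 CG (Grin2c, chr11:115128558-115128807, minus strand), 26 (Chrm4, chr2:91762096-91762345, plus strand), 9 (Gabra5, chr7:64765430-64765679, minus strand) and 24 (Adrb1, chr19:56796357-56796606, plus strand).
Grin2c: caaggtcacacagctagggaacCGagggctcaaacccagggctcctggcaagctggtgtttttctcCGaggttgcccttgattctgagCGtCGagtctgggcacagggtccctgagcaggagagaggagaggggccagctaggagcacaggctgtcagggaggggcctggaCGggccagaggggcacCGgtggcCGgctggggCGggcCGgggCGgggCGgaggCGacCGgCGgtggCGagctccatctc
Chrm4: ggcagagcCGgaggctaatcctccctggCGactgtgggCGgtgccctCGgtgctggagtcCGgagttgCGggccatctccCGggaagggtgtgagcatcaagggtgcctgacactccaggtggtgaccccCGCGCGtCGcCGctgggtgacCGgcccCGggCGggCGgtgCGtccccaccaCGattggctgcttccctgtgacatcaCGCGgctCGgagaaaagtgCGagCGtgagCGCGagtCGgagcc
Gabra5: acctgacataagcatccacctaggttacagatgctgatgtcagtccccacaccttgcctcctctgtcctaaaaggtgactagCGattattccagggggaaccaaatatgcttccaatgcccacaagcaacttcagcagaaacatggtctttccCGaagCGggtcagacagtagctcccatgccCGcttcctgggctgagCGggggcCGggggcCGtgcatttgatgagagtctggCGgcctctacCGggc
Adrb1: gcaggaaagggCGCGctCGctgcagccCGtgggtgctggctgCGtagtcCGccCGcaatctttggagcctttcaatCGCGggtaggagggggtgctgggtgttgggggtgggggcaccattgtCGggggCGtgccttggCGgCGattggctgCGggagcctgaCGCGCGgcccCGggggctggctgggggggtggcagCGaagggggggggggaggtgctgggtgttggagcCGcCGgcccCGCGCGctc

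The promoters without a peak are those of Chrna1, the muscle nicotinic alpha subunit (chr2:73418396-73418645, minus strand, 3 CG), Gabra3, a GABA-A receptor subunit (chrX:69902147-69902396, minus strand, 0 CG), and Drd3, a dopamine receptor (chr16:43762084-43762333, plus strand, 1 CG). Chrm3 and Chrm5 come before Chrna1 by symbol but were passed over because their annotated starts differ from those in RefSeq, and the glutamate receptors without a peak, Gria1, Gria3 and Grm5, had no entry.
Chrna1: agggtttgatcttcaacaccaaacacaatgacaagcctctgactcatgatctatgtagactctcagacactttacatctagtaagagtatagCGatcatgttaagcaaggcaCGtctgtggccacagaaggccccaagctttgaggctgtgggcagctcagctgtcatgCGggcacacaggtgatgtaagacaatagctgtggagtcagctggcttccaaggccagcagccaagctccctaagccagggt
Gabra3: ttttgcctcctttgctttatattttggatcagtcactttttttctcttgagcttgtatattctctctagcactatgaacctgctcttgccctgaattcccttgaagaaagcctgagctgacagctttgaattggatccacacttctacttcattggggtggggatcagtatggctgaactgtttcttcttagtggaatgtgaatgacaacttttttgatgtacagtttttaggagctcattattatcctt
Drd3: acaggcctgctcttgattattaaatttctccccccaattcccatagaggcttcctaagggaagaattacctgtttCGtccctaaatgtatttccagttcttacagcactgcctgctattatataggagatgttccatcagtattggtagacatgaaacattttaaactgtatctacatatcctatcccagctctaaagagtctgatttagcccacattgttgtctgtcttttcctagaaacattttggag

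H3K27me3 lay at the start sites of receptor genes far more often than at those of all protein-coding genes. A gene was counted as marked when the centre of a peak lay within 2500 bp of any of its start sites. In wild type NPC, 58 of 96 receptor genes were marked by H3K27me3 (60.4%, 95% Wilson interval 50.4 to 69.6, for counting error over genes only), against 15.7% of all genes. Wild type ES had 49 marked members (51.0%, 41.2 to 60.8, all genes 13.4%). The counts were 54 in PCGF5-depleted NPC (56.2%, 46.3 to 65.7, all genes 15.4%) and 36 in PCGF5-depleted ES (37.5%, 28.5 to 47.5, all genes 12.9%). All 4 intervals lay above the share over all genes. The ES value of depleted cells was the lowest of the 4. With the same number of peaks in every histone list the members marked numbered 28 and 19 in wild type and depleted ES and 38 and 25 in NPC of these genotypes, from 19.8% to 39.6%, against 6.44% to 8.21% of all genes.

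H2AK119ub1 was at fewer receptor genes. It was listed at 16 members in wild type ES (16.7%, 10.5 to 25.4, all genes 6.69%), 15 in PCGF5-depleted ES (15.6%, 9.70 to 24.2, all genes 5.96%), 20 in wild type NPC (20.8%, 13.9 to 30.0, all genes 4.98%) and 17 in PCGF5-depleted NPC (17.7%, 11.4 to 26.5, all genes 4.17%). These shares also lay above the background, and their intervals overlapped each other. The wild type NPC count rested on the setting, at 9 within 1000 bp (all genes 3.04%) and 11 with the higher-scoring 50% of peaks (all genes 2.89%). Under both settings it was below the wild type ES count of 14 and 12. The share over all genes was below that of wild type ES too, which was 4.39% and 4.05%. With the higher-scoring 50% the depleted counts were 7 in ES (all genes 3.37%) and 10 in NPC (all genes 2.33%). Within 1000 bp the depleted NPC count was also 10 (all genes 3.00%). Flag-PCGF5 was at 3 members in ES (3.12%, 1.07 to 8.79, all genes 0.787%) and 16 in NPC (16.7%, 10.5 to 25.4, all genes 13.7%). In NPC the Flag interval included the background share, so receptor genes did not stand apart in that list. The count there was 8 with the higher-scoring 50% of peaks (all genes 6.78%). It was 0 with the same number of peaks as in ES, where the share over all genes was 0.724%. The number of genes called moves with the length of a list, which ran from 653 peaks for Flag-PCGF5 in ES and 12013 in NPC to between 3845 and 14759 for the histone marks; read depth is unknown and its part in the differences was not tested.

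**Figure D1:**
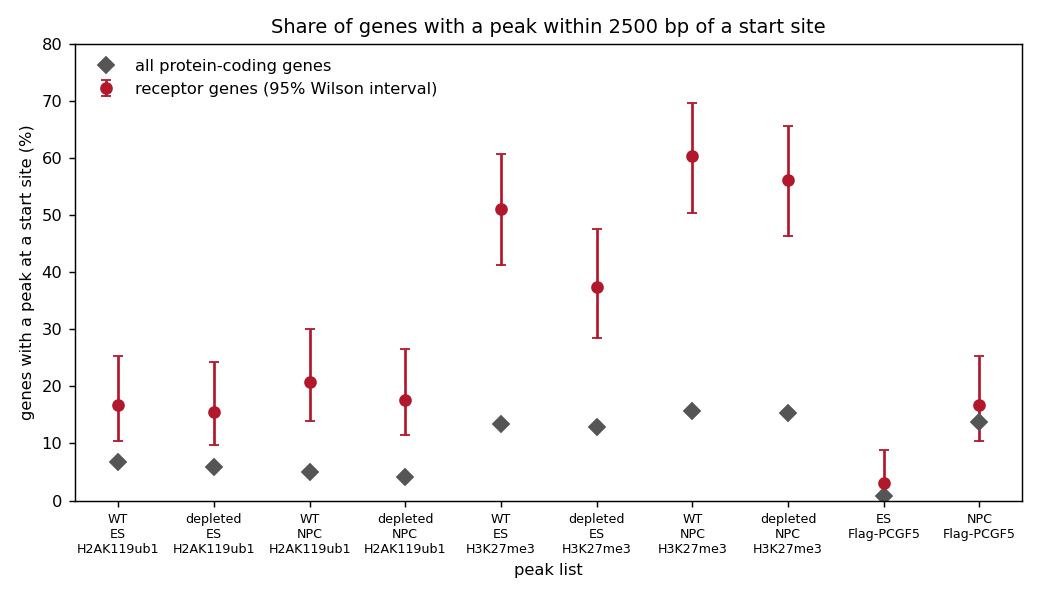
Share of genes with a peak within 2500 bp of a start site (vertical axis, percent) in each of the 10 peak lists (horizontal axis); red points are the 96 receptor genes with 95% Wilson intervals and grey diamonds all 22232 protein-coding genes. In the 4 H3K27me3 lists the receptor genes lie between 37.5% and 60.4% and the background between 12.9% and 15.7%.

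Across the 10 lists, 69 members had a peak at a start site in at least 1 list (all genes 33.8%) and 27 had none. H3K27me3 was found in at least 1 of the 4 populations at 66 members (all genes 23.1%), and in all 4 at 31 (all genes 7.21%). H2AK119ub1 was found in at least 1 population at 32 members (2657 of 22232 genes in all, 88.0% having it in none), and each of these 32 also had H3K27me3 in some population. The 2 marks mostly came together over all genes too. Of all genes with H2AK119ub1, 79.8% (wild type) and 73.3% (PCGF5-depleted) had H3K27me3 in the same population in ES. In NPC the shares were 94.9% and 92.6%. H2AK119ub1 was in all 4 populations at 4 members (all genes 1.52%), Adrb1, Grid1, Grid2ip and Htr1a, which encodes a serotonin receptor. Among the members with H3K27me3, those that also had H2AK119ub1 in the same population made up 32.7% (wild type) and 36.1% (PCGF5-depleted) in ES and 34.5% and 31.5% in NPC. The same shares over all genes came to 39.9% and 33.8% for ES, then 30.2% and 25.0% for NPC, so receptor genes with H3K27me3 were not set apart by how often H2AK119ub1 came with it.

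**Figure D2:**
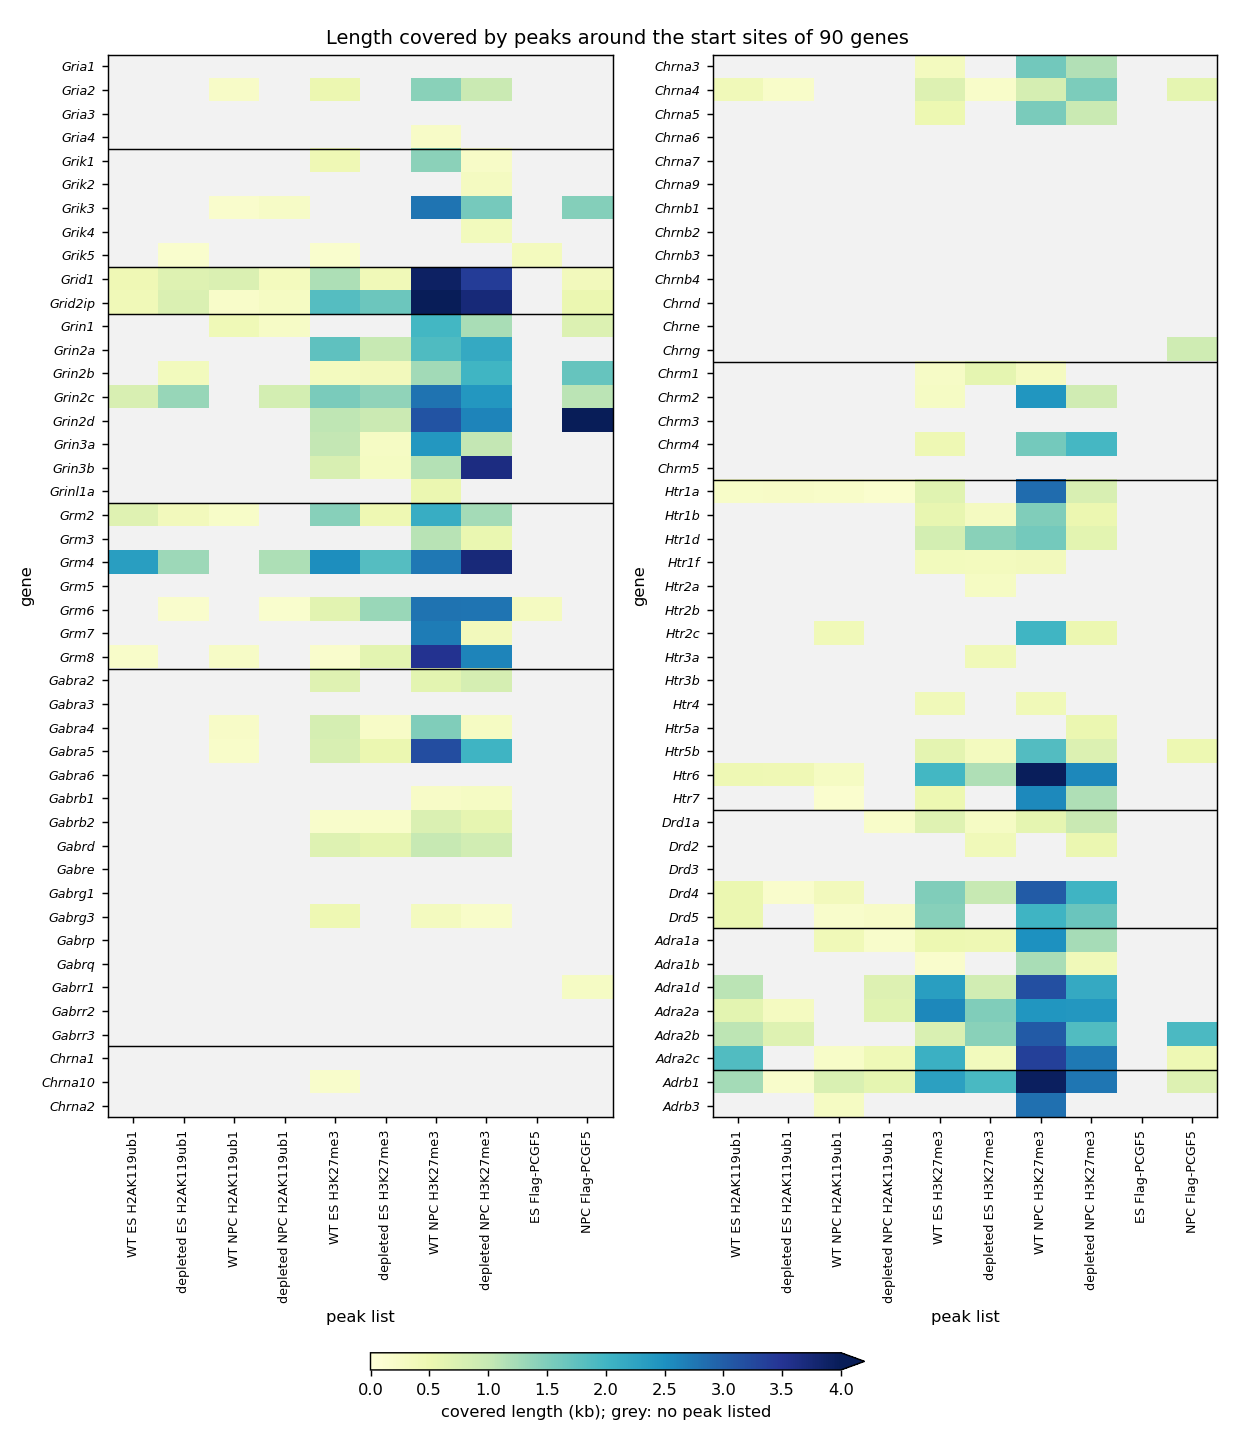
Length covered by peaks (colour, kb) within 2500 bp of the start sites of each of 90 of the 96 genes (rows, by family) in each of the 10 lists (columns); grey marks genes with no peak centred in the window. Colour is densest in the H3K27me3 columns of NPC, and most nicotinic receptor genes (Chrn) are grey throughout.

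Among the channels, H3K27me3 was at 11, 8, 13 and 14 of the 18 ionotropic glutamate receptor genes in wild type ES, depleted ES, wild type NPC and depleted NPC. Of all 28 members of the glutamate class, which add the metabotropic receptors (Grm), Grid2ip and Grinl1a, 17 had H3K27me3 in wild type ES, 14 in PCGF5-depleted ES and 22 in NPC of either genotype. The NMDA receptor genes (Grin, with Grinl1a counted among them by name) were marked at 6 of 8 in both ES lists, at 8 of 8 in wild type NPC and at 7 of 8 in depleted NPC. AMPA receptor genes (Gria), which carry most fast excitatory transmission, were marked at 1 and 0 of 4 in wild type and depleted ES and at 2 and 1 in the NPC of these genotypes, and Gria1 and Gria3 had no peak in any list. The covered length, meaning the bases within 2500 bp of any start site that lie under peaks, was used to compare members. Members with several start sites set apart had a longer region in which to find peaks, and lengths were not adjusted for this. Grin2c had 1543 bp of H3K27me3 in wild type ES, 1385 bp in PCGF5-depleted ES, with longer regions of 2786 and 2416 bp in NPC of the same genotypes. Its H2AK119ub1 covered 769, 1332, 0 and 837 bp in the same order (wild type ES, PCGF5-depleted ES, wild type NPC, PCGF5-depleted NPC), which is kept from here on, so the wild type NPC list was the one without it. Grin2d, another NMDA receptor subunit, had 1050, 948, 3117 and 2624 bp of H3K27me3 and no H2AK119ub1 peak in any population. A peak at a Grin2d start also lay at the start of its neighbour Kdelr1 in 3 lists, wild type ES and NPC H3K27me3 and NPC Flag-PCGF5.

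The delta receptor Grid1, which organises synapses, was marked in all 4 populations, as was Grid2ip. Grid1 had 1181, 416, 3893 and 3402 bp of H3K27me3 and 450, 694, 748 and 336 bp of H2AK119ub1. Grid2ip had 1837, 1642, 4168 and 3729 bp of H3K27me3 over its 3 start sites, the longest sum of any member, and 417, 736, 191 and 277 bp of H2AK119ub1. In both genes the H3K27me3 of NPC was longer than that of ES in each genotype. Among metabotropic glutamate receptors, Grm4, a presynaptic receptor that lowers transmitter release, had 2531, 1832, 2742 and 3710 bp of H3K27me3 and 2313, 1291, 0 and 1173 bp of H2AK119ub1. Its H2AK119ub1 in wild type ES was the longest of any member in any list, with a highest fold enrichment over background of 8.60 and a highest score at percentile 96.7 of that list. Grm6, the receptor of retinal ON bipolar cells, had 645, 1320, 2783 and 2771 bp of H3K27me3, and Grm2 had 1440, 474, 2119 and 1243 bp with H2AK119ub1 of 674, 369, 216 and 0 bp. Grm5 had no peak in any list.

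GABA-A receptor genes were marked less often, at 7, 4, 9 and 8 of 19 for H3K27me3. Their H2AK119ub1 was confined to wild type NPC in these lists, at 3 of 19 members, Gabra4 (231 bp) and Gabra5 (195 bp) among them, with 0 of 19 in the other populations. Gabra5, the subunit of extrasynaptic receptors in the hippocampus, had 776, 531, 3194 and 2023 bp of H3K27me3. The chromosome X genes Gabre, Gabra3 and Gabrq had no peak in any list, and neither did some genes of this class on other chromosomes, Gabrr2 among them. The serotonin receptor gene Htr2c, also on chromosome X, had 2014 and 503 bp of H3K27me3 in wild type and depleted NPC.

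Acetylcholine receptor genes had the lowest shares. H3K27me3 was at 7, 2, 6 and 5 of 21. Among the 16 nicotinic genes it was at 4, 1, 3 and 3. The muscle subunit genes Chrna1, Chrnb1, Chrnd and Chrne had no peak in any list, while Chrng, also of muscle, had Flag-PCGF5 in NPC alone. The lack of peaks was not particular to muscle subunits. Other nicotinic genes, Chrna7 and Chrnb4 among them, had no peak either. Chrna4, a subunit of the main nicotinic receptor of the brain, had 706, 201, 816 and 1516 bp of H3K27me3 and was the one nicotinic gene marked in all 4 populations. The neighbours Chrna5 and Chrna3 on chromosome 9 were marked in wild type ES and in both NPC lists but not in PCGF5-depleted ES, and the third gene of that cluster, Chrnb4, had no peak. Chrna5 had 498, 0, 1536 and 967 bp. Of the 5 muscarinic genes, Chrm4 had 458, 0, 1591 and 1961 bp and Chrm2, the cardiac receptor, 265, 0, 2426 and 878 bp. Chrm3 had no peak at its annotated start, but GENCODE M1 gives this gene 1949 bp and RefSeq 485577 bp. At the RefSeq start, 481720 bp away, H3K27me3 covered 254, 569, 1913 and 1168 bp and H2AK119ub1 0, 230, 293 and 285 bp. The blank in the main counts thus depends on which annotation is used, and taking RefSeq starts in place of those of GENCODE changed the call in at least 1 list for 4 of the 69 members with a RefSeq promoter.

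Receptors for monoamines held many of the longest regions. All 9 adrenergic receptor genes had H3K27me3 in wild type NPC, with 7 in wild type ES, 6 in PCGF5-depleted ES and 7 in PCGF5-depleted NPC. Adrb1, which raises heart rate in response to noradrenaline, had 2288, 1936, 3937 and 2752 bp of H3K27me3 and 1248, 179, 759 and 604 bp of H2AK119ub1. Its annotated start is its start codon, and the RefSeq start lies 255 bp upstream. Adra2c, a presynaptic autoreceptor, had 2071, 346, 3349 and 2730 bp of H3K27me3 and 1867, 0, 204 and 430 bp of H2AK119ub1. For both genes the PCGF5-depleted ES values were the lowest of the 4 in each mark. Adra2a had 2583, 1495, 2432 and 2416 bp of H3K27me3 with 629, 301, 0 and 664 bp of H2AK119ub1, and Adra1d had 2316, 873, 3166 and 2166 bp with 1087, 0, 0 and 718 bp. Adra2b had H2AK119ub1 in ES only, at 1069 and 689 bp, while its H3K27me3 covered 764, 1430, 3038 and 1870 bp.

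Serotonin receptor genes had H3K27me3 at 8, 7, 9 and 8 of 14 and dopamine receptor genes at 3, 3, 3 and 4 of 5. Htr6, a receptor found mainly in the brain, had 1974, 1158, 3966 and 2589 bp of H3K27me3 and 461, 439, 280 and 0 bp of H2AK119ub1. Drd4, a receptor of the D2 type, had 1489, 996, 3023 and 2026 bp of H3K27me3 and 520, 159, 372 and 0 bp of H2AK119ub1. In both genes the order of the 4 H3K27me3 values was the same, with wild type NPC longest and PCGF5-depleted ES shortest. Of the channel-forming serotonin receptors, Htr3a had 412 bp of H3K27me3 in PCGF5-depleted ES alone, and Htr3b had no peak. Counted by mechanism, H3K27me3 was at 26, 21, 31 and 28 of the 39 G protein-coupled receptor genes and at 22, 14, 25 and 25 of the 55 channel genes. H2AK119ub1 was at 12, 9, 12 and 11 of the former and at 3, 5, 7 and 5 of the latter.

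**Figure D3:**
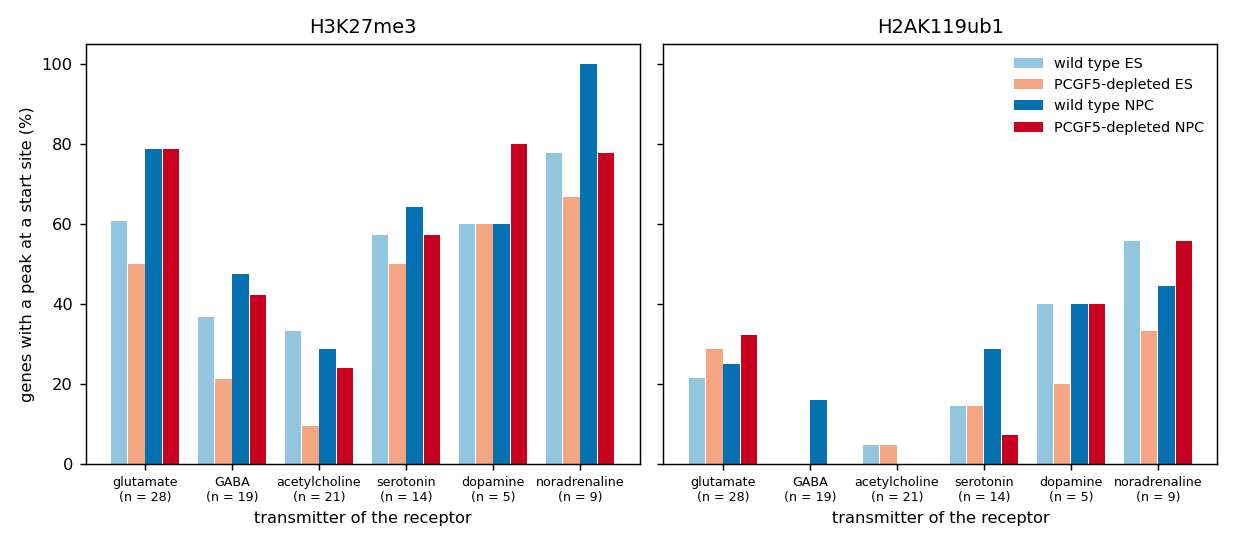
Share of genes with a peak at a start site (vertical axis, percent, from 0) by the transmitter of the receptor (horizontal axis, with the number of genes) for H3K27me3 on the left and H2AK119ub1 on the right; bars stand for the 4 cell populations. H3K27me3 reaches 9 of 9 noradrenaline receptor genes in wild type NPC and stays at 7 of 21 or fewer for acetylcholine.

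To see how the cells with less PCGF5 differed, members were split by whether they were marked in both genotypes. In ES, H3K27me3 was at 33 members in both genotypes, at 16 in wild type alone (all genes 3.90%) and at 3 in PCGF5-depleted cells alone (all genes 3.43%). Over all genes the parts seen in 1 genotype alone were thus close in size, 867 and 763 genes, while the receptor genes split 16 to 3. The wild type count was the higher of the 2 in each of the 7 alternative settings, the smallest gap being 28 against 19. Of the 16, 12 were marked in both NPC lists, as were 328 of the 867 over all genes. Drd5, a dopamine receptor of the D1 type, had 1440, 0, 2023 and 1664 bp of H3K27me3. Gabra2, a synaptic GABA-A subunit, had 675, 0, 626 and 819 bp, and Htr1a, a serotonin autoreceptor, had 669, 0, 2846 and 778 bp. In these 3 genes the PCGF5-depleted ES list was the one blank among the 4. Gria2, which makes AMPA receptors impermeable to calcium, showed the same layout with 511, 0, 1437 and 959 bp, and so did Htr7 with 490, 0, 2575 and 1162 bp. The 3 members in PCGF5-depleted ES alone were Htr3a, Drd2 (393 bp) and Htr2a (274 bp), the last being the cortical receptor that binds hallucinogens.

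In NPC, H3K27me3 was at 50 members in both genotypes, at 8 in wild type alone (all genes 3.74%) and at 4 in PCGF5-depleted cells alone (all genes 3.54%). The gap between the genotypes depended on the setting, with 50 members in each within 1000 bp, 50 in wild type and 37 in depleted NPC with the higher-scoring 50% of peaks, and 38 and 25 with the same number of peaks. Adrb3, the beta-3 adrenergic receptor of fat cells, was the longest of the 8, with 2819 bp in wild type NPC and no peak in the other 3 H3K27me3 lists. Its H2AK119ub1 was likewise in wild type NPC alone, at 275 bp. The others were shorter, with 531 bp at Grinl1a, 415 at Htr4 and 365 at Htr1f among them. The Grinl1a peak also lay at the start of Gcom1. In PCGF5-depleted NPC alone were Drd2 (527 bp), Htr5a (516 bp) and the kainate receptor genes Grik4 (344 bp) and Grik2 (311 bp). Drd2, the receptor that antipsychotic drugs block, was thus marked in both depleted lists and in neither wild type list. Its peaks scored low, at percentile 12.2 of the depleted ES list and at most 23.5 of the depleted NPC list. In depleted NPC, Htr5a, Grik4 and Grik2 stood at 25.1, 30.4 and 26.2. In wild type NPC, Adrb3 reached 70.0, while Htr1f, Grinl1a and Htr4 stood at 28.1, 6.60 and 5.73.

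H2AK119ub1 differed from gene to gene between the NPC genotypes. It was at 9 members in both, at 11 in wild type alone (all genes 2.46%) and at 8 in PCGF5-depleted NPC alone (all genes 1.65%). Of the 20 members with it in wild type NPC, 45.0% had it in PCGF5-depleted NPC, against 50.7% over all genes. In ES the 2 lists had 12 members in common, 4 in wild type alone (Adra1d, Adra2c, Drd5 and Grm8; all genes 3.43%) and 3 in PCGF5-depleted alone (Grik5, Grin2b and Grm6; all genes 2.69%). The share of wild type ES members also found in depleted ES was 75.0%, against 48.8% over all genes.

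Where H3K27me3 was in both genotypes, it covered less in PCGF5-depleted cells. Over the 50 members marked in both NPC lists, the median covered length was 1998 bp in wild type and 1214 bp in depleted NPC. Of the 50, 41 were shorter in depleted cells, as were 1873 of the 2648 over all genes. The median log2 ratio of depleted to wild type was -0.58, against -0.34 over the 2648 genes of the genome marked in both. Over the 33 members of ES the medians were 776 and 531 bp, and 26 were shorter, as were 1172 of 2109 over all genes. The median log2 ratio was -0.58 against -0.14 over the 2109 genes. Grin3b, an NMDA receptor subunit picked here after its values were seen, went the other way in NPC, with 1127 bp in wild type and 3652 bp in depleted cells. Fewer cells with the mark and less of it per cell cannot be told apart in such lists, and covered length also moves with the depth of a library.

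**Figure D4:**
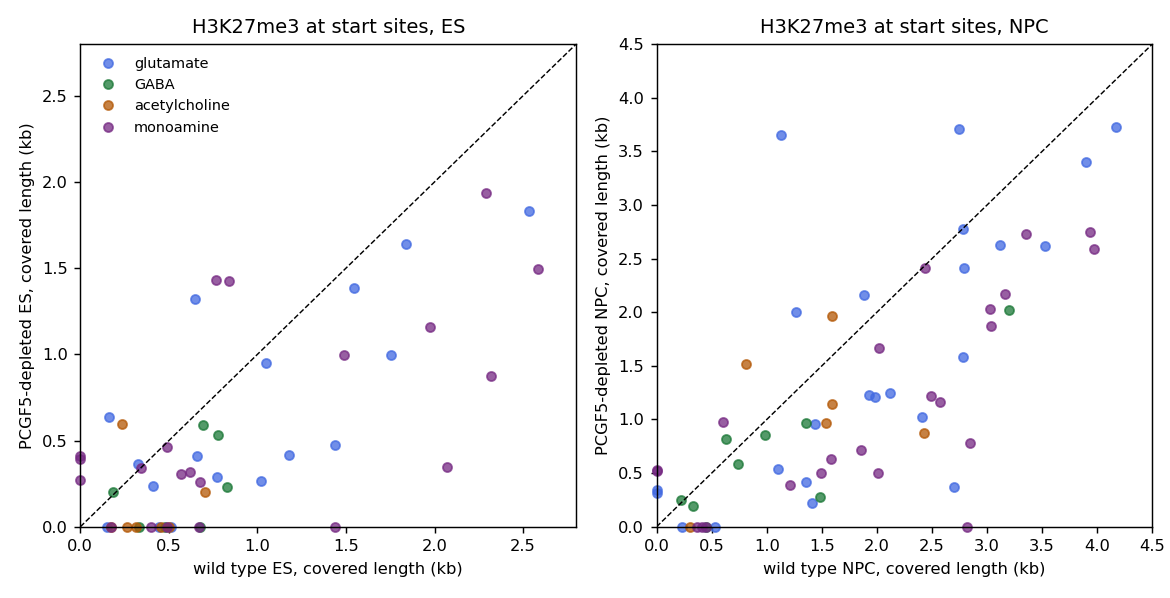
Covered length of H3K27me3 (kb) at each member in wild type (horizontal axis) and PCGF5-depleted cells (vertical axis), for ES on the left and NPC on the right, coloured by transmitter; points on an axis had a peak in 1 genotype alone and the dashed line marks equal lengths. Most points lie below the line, 26 of 33 in ES and 41 of 50 in NPC among members marked in both. Over all genes marked in both, 1172 of 2109 in ES and 1873 of 2648 in NPC were shorter in depleted cells.

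Between ES and NPC, H3K27me3 was mostly kept in wild type cells and was longer in NPC. In wild type cells 47 members were marked in both states, 2 in ES alone (Chrna10 and Grik5; all genes 3.81%) and 11 in NPC alone (all genes 6.08%). The share of ES members also marked in NPC was 95.9%, against 71.5% over all genes. Among the 11 were Adrb3, Gabrb1, Gria4, Grik3, Grin1, Grinl1a, Grm3, Grm7 and Htr2c. Over the 47, the median covered length was 675 bp in ES and 1881 bp in NPC, and 43 were longer in NPC. The median log2 ratio was 1.18 and that over all genes marked in both was 1.23, so members were close to the rest of the genome in this. In PCGF5-depleted cells 32 members were marked in both states, 4 in ES alone (all genes 3.07%) and 22 in NPC alone (all genes 5.60%). Of those 22, 12 were the members absent in depleted ES alone (328 of 1244 over all genes), among them Drd5, Gabra2 and Htr1a. For H2AK119ub1 the wild type states shared 10 members, with 6 in ES alone (all genes 4.22%) and 10 in NPC alone (all genes 2.51%), and the depleted states shared 8, with 7 (all genes 3.52%) and 9 (all genes 1.74%) alone.

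Flag-PCGF5 was at 3 members in ES alone (all genes 0.526%), at 16 in NPC alone (all genes 13.5%) and at none in both. Over all genes, 58 had it in both, which was 33.1% of the 175 with it in ES. The 3 members of ES are too few to set against that share. They included the kainate receptor Grik5 (330 bp) and Grm6 (307 bp). In NPC the longest was at Grin2d (6082 bp over its 3 start sites), with long regions also at Adra2b (1910 bp), Grin2b (1689 bp), Grik3 (1459 bp) and Grin2c (1083 bp). Grin2b is the NMDA receptor subunit of the fetal forebrain, and Grik3 is a kainate receptor. Shorter regions covered 905 bp at Chrng, the fetal muscle nicotinic subunit, 725 at Grin1, the subunit that all NMDA receptors share, and 708 at Adrb1. Grid2ip (519 bp), Chrna4 (594 bp), Htr5b (497 bp), Adra2c (464 bp), Grid1 (364 bp) and Gabrr1 (263 bp) had still less. The fold enrichment of the NPC peaks had a median of 2.18 at members and 2.18 at the start sites of all genes.

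Of the 16 members with Flag-PCGF5 in NPC, 14 had H3K27me3 in wild type NPC (87.5%), while 25.3% of all 3055 genes with Flag-PCGF5 in NPC did. The other two, Chrng and Gabrr1, had no histone peak in any list. For PCGF5-depleted NPC the count was 13 of 16 (81.2%, all such genes 24.1%). H2AK119ub1 was at 6 of the 16 in wild type NPC (37.5%, all such genes 8.22%) and at 8 in PCGF5-depleted NPC (50.0%, all such genes 7.50%). Among the 80 members without Flag-PCGF5 in NPC, 44 had H3K27me3 and 14 had H2AK119ub1 in wild type NPC. The shares over all genes, with or without Flag-PCGF5, were 15.7% and 4.98%. At Grik3, H3K27me3 covered 0, 0, 2780 and 1578 bp and H2AK119ub1 0, 0, 163 and 243 bp, and at Grin1 the values were 0, 0, 1982 and 1207 bp and 0, 0, 434 and 247 bp. At these genes Flag-PCGF5, H3K27me3 and H2AK119ub1 were all listed in NPC and none of them in ES.

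The name rule used no sequence, and the marked members differed from the others in the CpG content of their starts. The ratio of observed to expected CpG within 500 bp of the most upstream start had a median of 0.59 over the 66 members with H3K27me3 in any population, 0.23 over the 30 without, and 0.55 over all genes. A ratio of at least 0.6 was found in 30 of the 66 (45.5%) and in 2 of the 30 (6.67%), which were Chrna7 and Chrnb1 at 0.81 and 0.64. It was found in 46.1% of all genes, in 57.5% of those with H3K27me3 in any population and in 42.7% of those with none. The medians of the last 2 sets were 0.64 and 0.48. Marked genes thus had the higher ratio over the whole genome too, and the unmarked members lay below unmarked genes in general. The promoters printed above lie along this range, from 0.84 for Gabra5 and 0.85 for Adrb1 to 0.23 for Chrna1, 0.19 for Drd3 and 0.09 for Gabra3. In the other direction, Chrna4 had H3K27me3 in all 4 populations at a ratio of 0.15. That ratio was taken at the most upstream of its 3 start sites, while a peak at any of them counted. The marked start of Chrna4 may be another, which was not tested. Members with 1 start site were also marked at ratios under 0.6. Among them, Grm2 at 0.49 and Htr5b at 0.42 had H3K27me3 in all 4 populations. Among members with a ratio of at least 0.6, 84.4% of 32 had H3K27me3 in wild type NPC, against 21.7% of all genes in that range, and among those below it 48.4% of 64, against 10.5%. The excess over all genes was therefore seen on both sides of this limit. CpG content did not set apart the 16 members with H3K27me3 in wild type ES alone, whose median was 0.61, from the 33 in both ES genotypes, at 0.60.

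**Figure D5:**
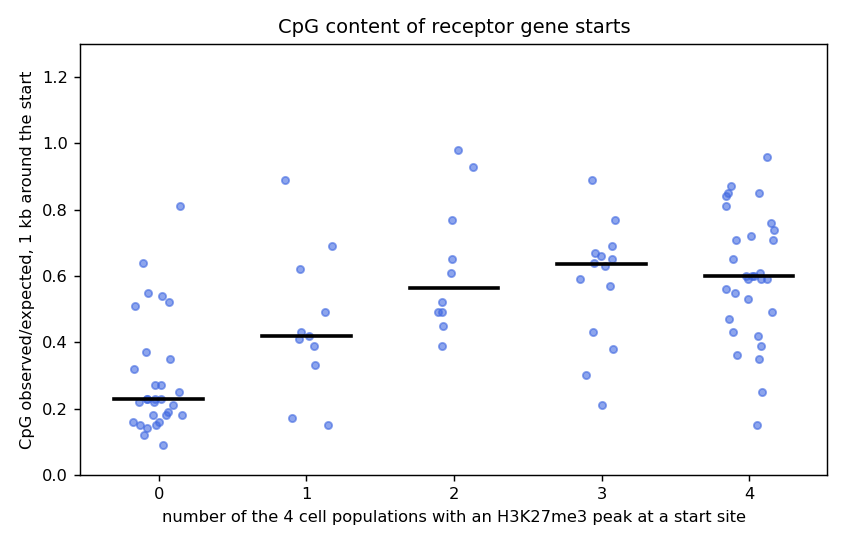
Observed over expected CpG ratio in the 1 kb around the most upstream start (vertical axis) by the number of the 4 populations with an H3K27me3 peak at a start site (horizontal axis); each point is 1 member and bars are medians. Members with 0 populations have a median of 0.23 and those with all 4 a median of 0.60.

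Inside the genes, more than 2500 bp from any start site, the members held fewer peaks for their length than all genes did in 9 of the 10 lists. The median length of a member was 31968 bp, against 15510 bp over all genes. H3K27me3 peaks lay inside 21 members in wild type ES (21.9%, all genes 7.55%), but per megabase of gene body the members held 2.17 such peaks and all genes 3.59. The exception was H3K27me3 in PCGF5-depleted ES, with 2.75 peaks per megabase in members and 2.70 in all genes. For Flag-PCGF5 in NPC the values were 18 members (18.8%, all genes 12.2%) and 2.46 peaks per megabase, against 4.63 over all genes. Genes over 100000 bp were also compared, 33 members and 2398 of all genes. Among these, members more often had a peak inside for H3K27me3 in PCGF5-depleted ES (24.2%, all genes 16.8%). The same held narrowly for wild type NPC H2AK119ub1 (9.09%, 7.76%) and ES Flag-PCGF5 (3.03%, 2.84%). In the other lists members had the lower share, as in wild type ES H3K27me3 (18.2%, 22.6%). The part of gene length in the peaks per megabase was not tested. Grm4 held 11 H2AK119ub1 peaks inside the gene in wild type ES, the most of any member in that list, 5 in PCGF5-depleted ES and 0 in either NPC list.

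Other genes of the synapse were counted for context. H3K27me3 was at 59.6%, 51.1%, 63.8% and 60.6% of the 94 potassium channel genes, at 61.3%, 51.6%, 58.1% and 58.1% of 31 genes for transmitter synthesis, loading and uptake, and at 47.4%, 52.6%, 50.0% and 47.4% of 38 genes for anchoring and auxiliary proteins. Receptor genes thus stood with these groups in wild type cells, and their 37.5% in PCGF5-depleted ES was the lowest of the 4 groups, a difference that was not tested. The 14 receptor genes outside the name rule (glycine, GABA-B and P2X receptors) were marked at 21.4%, 14.3%, 42.9% and 35.7%. As a check of the cell labels, the ES genes Pou5f1 and Nanog had no peak at a start site in any list, and the neural gene Pax6 had from 8 to 20 peaks in each histone list. Peaks of these marks therefore did not tell ES from NPC through these genes.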

How the data were processed

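Of the 16 ChIP-seq libraries, 1 per group by their labels, 10 had peak lists that were used and 6 inputs were not. According to the methods, histone chromatin was digested with MNase and then lightly fixed, and Flag chromatin was fixed with EGS and formaldehyde and sonicated. Trimmed reads were aligned by the authors to mm9 with Bowtie2, duplicates were removed, and MACS2 2.1.0 called peaks per library; their Drosophila spike-in does not enter the lists. For each peak the deposited columns hold a score, a fold enrichment (a ratio over background) and the −log10 of the p-value and of the q-value, as the authors' caller wrote them, plus the summit offset. The score follows the p-value in the histone lists and the q-value in the Flag lists, so all were ranked or filtered within a list only. Read totals were not given in the files, so depth is unknown and intervals cover counting error over genes only.

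All 86279 peaks lay within the chromosomes of NCBIM37 (mm9), whose GENCODE M1 annotation gave the start sites, counted from 1. Peaks were assigned to genes by their centre with Python 3.11.15 and numpy 2.4.6, checked against bedtools 2.31.1 and tested on simulated data. No test of conditions was made. Promoters came from RefSeq, in which 69 members had an entry. Sox1 was not analysed here. The settings tried were any base of a peak, a window of 1000 bp, the higher-scoring 50% of each list, q-values under 0.05, equal numbers of peaks, the most upstream start and, added after seeing the data, RefSeq starts. The members and lists of genes were chosen with earlier results of these data known. Genes were named with values if they had Flag-PCGF5, were among the 12 longest with H3K27me3 in all 4 populations or with H2AK119ub1 in at least 2, were among the 6 longest per direction marked in 1 genotype, or stood for their family, and others are named only for a count, a cluster or a missing mark. Promoters were chosen by longest H3K27me3 in each transmitter class and by symbol among members with no peak, with the exceptions stated. Single values of some members are not reported here, and counts include them.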

Additional observations from a re-analysis of the deposited data

Results flagged for a closer look

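In 5 pairs of counts, the same contrast went in opposite directions in 2 groups of cells. In every case each group was 1 library, the counts are of genes, and the difference was not tested. Acetylcholine receptor genes with H3K27me3 numbered 1 fewer in NPC than in ES of wild type cells (a difference of -1) and 3 more in PCGF5-depleted cells. Serotonin receptor genes with H2AK119ub1 differed by 2 between NPC and ES in wild type cells and by -1 in PCGF5-depleted cells. Noradrenaline receptor genes with H2AK119ub1 differed between PCGF5-depleted and wild type cells by -2 in ES and by 1 in NPC, and between NPC and ES by -1 in wild type and by 2 in PCGF5-depleted cells. Ligand-gated channel genes with H2AK119ub1 differed between PCGF5-depleted and wild type cells by 2 in ES and by -2 in NPC.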

How the results depend on the processing

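Of 161 values recomputed under the alternatives, 137 moved by less than the counting interval, 18 moved beyond it and 6 changed sign; the cause was not tested. Within 1000 bp, H2AK119ub1 was at 9.38% of members in wild type NPC and 10.4% in PCGF5-depleted NPC (all genes 3.04% and 3.00%). The difference of depleted from wild type NPC was then 1.04 percentage points (all genes -0.04). That of NPC from ES was -5.21 in wild type and -1.04 in depleted cells (all genes -1.35 and -0.51). Of the H3K27me3 members of wild type and depleted NPC, 14.0% and 18.0% also had H2AK119ub1 (all genes 19.5% and 21.5%). With the higher-scoring 50% of peaks, H2AK119ub1 was at 7.29% in depleted ES, 11.5% in wild type NPC and 10.4% in depleted NPC. The shares over all genes were 3.37%, 2.89% and 2.33%. The wild type difference of NPC from ES was -1.04 (all genes -1.16). H3K27me3 was at 38.5% in wild type ES, 24.0% in depleted ES and 38.5% in depleted NPC (all genes 9.05%, 8.03% and 10.4%). Flag-PCGF5 was at 8.33% in NPC (all genes 6.78%). Of wild type NPC H3K27me3 members, 22.0% had H2AK119ub1 (all genes 24.9%). With equal numbers of peaks, 3845 per histone list and 653 per Flag list, H2AK119ub1 was at 7.29% in depleted ES (all genes 3.56%). The NPC genotypes then differed by 3.12 points (all genes 0.50). H3K27me3 was at 29.2%, 19.8%, 39.6% and 26.0% (all genes 6.44%, 6.46%, 8.21% and 6.52%). Flag-PCGF5 was at 0% in NPC (all genes 0.724%), a difference of -3.12 points from ES (all genes -0.06). Any base of a peak, q-values under 0.05, the most upstream start and RefSeq starts reversed no difference and moved no value beyond its interval, but the ES genotypes had equal H2AK119ub1 counts, 16 each, with any base and with RefSeq starts. The H3K27me3 difference of depleted from wild type NPC, -4.17 points in the main setting, was 0 within 1000 bp and -13.54 both with the higher-scoring 50%, where wild type NPC stood at 52.1%, and with equal numbers of peaks. The lower H3K27me3 count in depleted than in wild type ES held in all 7 settings. The directions of H2AK119ub1 between genotypes and between states, of H3K27me3 between the NPC genotypes and of Flag-PCGF5 did not hold in all of them. No paired analysis was possible because each group had 1 library and the labels carry no replicate numbers. Depth is unknown, so what it limits cannot be stated.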

Other observations

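Other genes of transmission held long H3K27me3 regions too. Gad1, which makes GABA, had 1253 bp in wild type ES, 2689 bp in PCGF5-depleted ES, and then 5605 and 4061 bp in NPC of these genotypes. Slc6a5, the glycine transporter of nerve endings, had 1525, 1171, 5250 and 3594 bp in the same order and H2AK119ub1 of 2060 and 626 bp in NPC of the same 2 genotypes. Nrxn2, a presynaptic adhesion protein, had 3338, 3939, 5159 and 5959 bp of H3K27me3 and 2574 bp of Flag-PCGF5 in NPC. These 3 were picked after their values were seen, and all had longer H3K27me3 in NPC than in ES in both genotypes.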
